A study of Homo sapiens with 2 samples.

Results

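The kinesin motor family was examined in Huh7 cells (a human liver cancer line) after 48 h with homochlorcyclizine dihydrochloride (HD), an antihistamine, or with DMSO, the solvent. The members were the 39 rows of the raw count table, out of 19927, whose symbol is KIF followed by a number and an optional letter A, B or C. All of them matched a RefSeq gene. The HD group is 1 library of treated Huh7 cells and the DMSO group is 1 library of solvent-treated Huh7 cells, both grown in the same serum-containing medium. The dose is not stated, 1 cell line was studied, and nothing in the labels names a second culture, so what follows compares 2 libraries, without a replicate check or a test.

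Kinesins are motor proteins that use ATP to walk along microtubules or to take microtubule ends apart. Mitotic kinesins build the spindle, move chromosomes and complete cell division, and their genes are switched on mainly in the G2 and M phases of the cell cycle. Transport kinesins carry vesicles, organelles and RNA in interphase, in liver cells among others for secretion and membrane sorting. The members were placed by textbook function into 13 mitotic kinesins, 13 transport kinesins and 13 others, which hold ciliary, centriolar and microtubule-regulating motors.

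The HD library held 40791119 counts and the DMSO library 38133894. Counts are given as CPM, scaled to library size with TMM factors, and a ratio is HD over DMSO with its 95% counting interval. Of the hepatocyte markers listed, all 8 were measured, with a summed level of 20022 CPM in the HD library and 22419 CPM in the DMSO library. The ratio was below 1 for 5 of them and above 1 for 3, from 0.725 to 1.44. Of 12 markers of immune cells, fibroblasts and endothelium, 4 reached the filter. The highest in the DMSO library was the endothelial PECAM1, at 5.63 CPM in HD and 11.7 CPM in DMSO, which was also lower (ratio 0.483, 0.409 to 0.566). The highest in the HD library was the fibroblast marker COL1A1, at 8.92 CPM in HD and 8.40 CPM in DMSO (ratio 1.06, 0.911 to 1.24). The 6 proliferation markers, among them MKI67 and TOP2A, were each at least 2-fold lower in the HD library, with ratios between 0.254 and 0.419. In bulk RNA, fewer dividing cells and less RNA per cell cannot be told apart.

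Mitotic kinesin mRNAs were lower in HD-treated cells while transport kinesin mRNAs were mostly near or above their DMSO level. Of the 39 members, 31 averaged 1 CPM or more across the pair of libraries and are called measured here. A measured gene counts as higher or lower below where it differed 2-fold or more with 1 outside its counting interval. By this rule 12 members were lower, against 5.10% of all 12353 measured genes, and 2 were higher, against 5.81% of all measured genes. All 11 measured mitotic kinesins were lower. Of the 11 measured transport kinesins none was lower and 1 was higher, and of the 9 measured others 1 was lower and 1 higher.

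The median log2 ratio was -1.83 for the mitotic kinesins, 0.25 for the transport kinesins and -0.07 for the others, beside -0.01 over all measured genes. The mitotic minus the transport median came to -2.08 log2 units. With the roles placed as above, all 11 measured mitotic kinesins had a lower ratio than every other measured member. The closest of the other members was KIF24, at a log2 ratio of -1.31. Kinesins outside the symbol pattern are given further below and are not part of this order. The split depends on KIF2A, a depolymerase of spindle poles with a ratio of 0.999, being placed among the others.

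**Figure D1:**
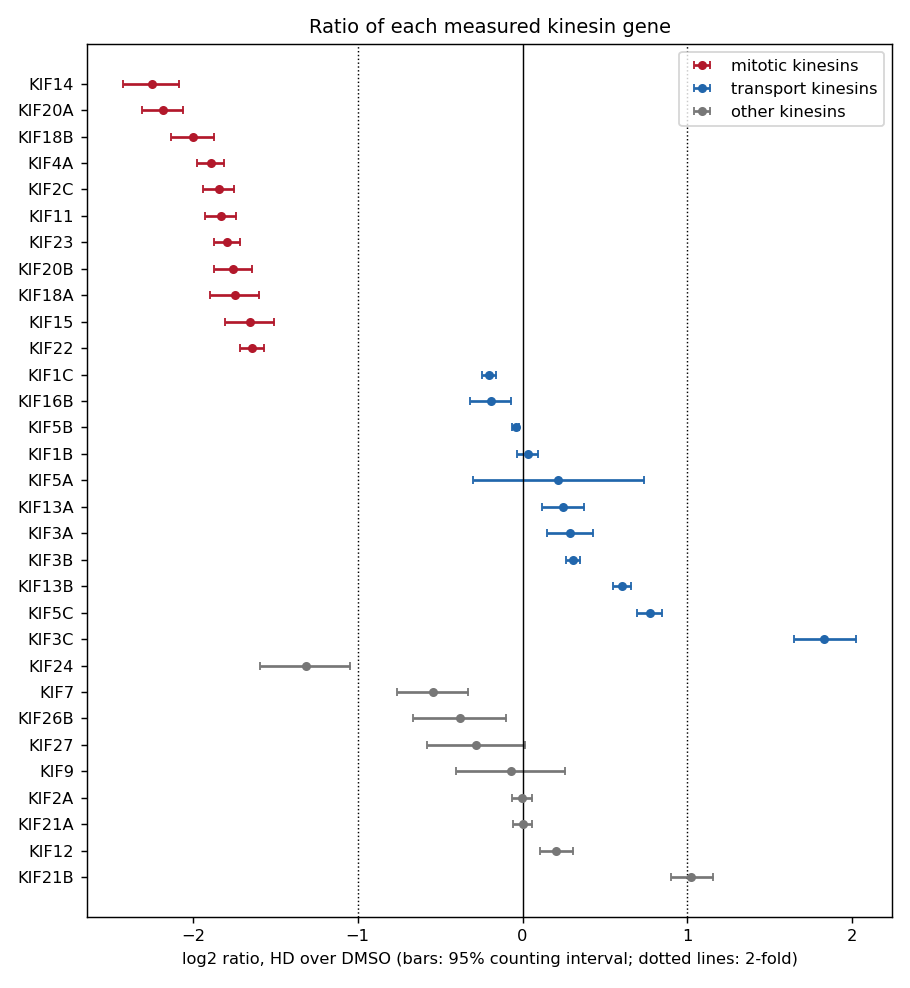
Log2 ratio of HD over DMSO for each of the 31 measured kinesin genes (points), with 95% counting intervals (bars), grouped as mitotic, transport and other. The 11 mitotic kinesins lie between -2.25 and -1.64, while the transport kinesins lie between -0.20 and 1.83.

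**Figure D2:**
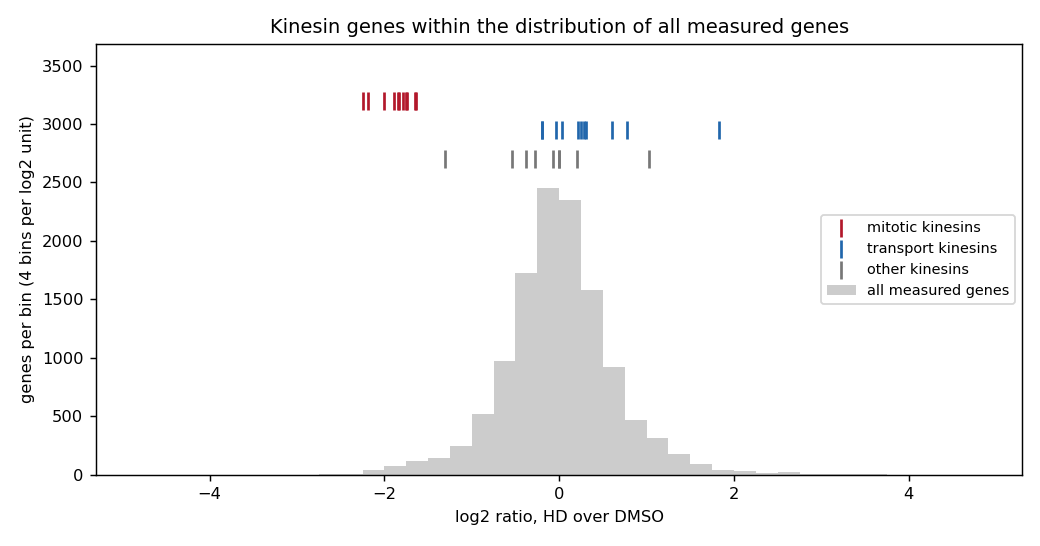
Number of measured genes per bin of the log2 ratio of HD over DMSO (grey bars), with each measured kinesin as a tick above. The mitotic ticks stand in the left tail. The transport ticks run from -0.20 to 1.83, with KIF13B at 0.60, KIF5C at 0.77 and KIF3C at 1.83 farthest to the right.

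The motors of late mitosis and cytokinesis include the members with the 2 lowest ratios, KIF14 and KIF20A. KIF14 (chromosome 1, 200551497 to 200620751), which acts at the midbody with citron kinase, had 357 counts (8.77 CPM) in the HD library, against 1596 counts (41.8 CPM) in the DMSO library. Its ratio was 0.210 (0.187 to 0.236), and 0.17% of all measured genes had a lower one. KIF20A (chromosome 5, 138179112 to 138187723), which brings the Aurora B complex to the central spindle, had 643 counts (15.8 CPM) in the HD library, against 2743 (71.8 CPM) in the DMSO library, a ratio of 0.220 (0.202 to 0.240). These intervals overlap, so the order of KIF14 and KIF20A is not resolved.

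KIF23 (chromosome 15, 69414349 to 69448427), the motor of the centralspindlin complex, was at 41.1 CPM in the HD library, against 143 CPM in the DMSO library, a ratio of 0.289 (0.273 to 0.305). KIF20B, a related motor needed for abscission, was at 19.8 CPM in HD, against 66.8 CPM in DMSO, a ratio of 0.296 (0.273 to 0.321). KIF4A (chromosome X, 70290104 to 70420886), a chromosome-binding motor that sets the length of the central spindle, was at 37.5 CPM in HD, against 139 CPM in DMSO, a ratio of 0.269 (0.254 to 0.285). All 5 motors of the central spindle and midbody described so far were therefore more than 3-fold lower.

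The motors of spindle assembly were lower to a similar degree. KIF11 (chromosome 10, 92593130 to 92655395), the tetrameric motor Eg5 that pushes the spindle poles apart, had 1209 counts (29.7 CPM) in HD, against 4041 (106 CPM) in DMSO, a ratio of 0.281 (0.263 to 0.300). KIF15, which can share the work of KIF11 in holding the spindle bipolar, was at 12.2 CPM in HD, against 38.5 CPM in DMSO, a ratio of 0.318 (0.286 to 0.352). The intervals of these partners overlap.

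Motors that act on microtubule ends and chromosomes completed the group. KIF2C (chromosome 1, 44739837 to 44767767), the depolymerase MCAK that corrects faulty chromosome attachment, was at 28.3 CPM in HD, against 102 CPM in DMSO, a ratio of 0.279 (0.261 to 0.298). KIF18A, which damps chromosome movement at the metaphase plate, was at 12.1 CPM in HD, against 40.7 CPM in DMSO, a ratio of 0.298 (0.269 to 0.330). KIF18B (chromosome 17, 44924711 to 44947773), which limits the length of astral microtubules, was at 15.2 CPM in HD, against 60.8 CPM in DMSO, a ratio of 0.250 (0.228 to 0.273). KIF22 (chromosome 16, 29790751 to 29805385), a chromokinesin that pushes chromosome arms outward, was at 54.4 CPM in HD, against 170 CPM in DMSO. Its ratio of 0.321 (0.305 to 0.337) was the highest of the group, and its interval does not overlap that of KIF14. The interval does overlap those of KIF15, KIF18A and KIF20B, so which of these is highest is not resolved. From KIF14 to KIF22 the ratios spanned 1.52-fold.

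The mitotic members without a measured level were KIF4B and KIF2B. KIF4B, an intronless relative of KIF4A (chromosome 5, 155013755 to 155018141), had 7 counts in the HD library and 15 in the DMSO library. KIF2B had 0 counts in each library, so levels of up to 0.0737 CPM in HD and 0.0785 CPM in DMSO remain possible. Reads can be split between KIF4A and KIF4B, whose GENCODE transcripts share 606 words of 50 bases, 13.4% of those of KIF4A. The summed counts of both genes gave a ratio of 0.270 (0.255 to 0.285).

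Genes outside the symbol pattern that encode kinesins or their partners were listed for context. CENPE, the kinetochore kinesin, had a ratio of 0.194 and KIFC1, a minus-end motor that focuses spindle poles, was at 24.9 CPM in HD, against 73.2 CPM in DMSO, a ratio of 0.341. The minus-end motors KIFC3 and KIFC2, which act outside mitosis, lay at 43.0 and 7.52 CPM in HD, against 54.1 and 5.18 CPM in DMSO, and were not called. Of 22 measured partners of mitotic kinesins, 19 were lower, against 5.10% of all measured genes, and none was higher, against 5.81%. Their median log2 ratio was -1.67. Among them the spindle protein SPAG5 was at 52.1 CPM in HD, against 223 CPM in DMSO. CDCA8, a subunit of the Aurora B complex, was at 16.7 CPM in HD, against 67.9 CPM in DMSO. ASPM of the spindle poles had a ratio of 0.251 and PLK1, which phosphorylates several of these motors, one of 0.199.

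The proliferation markers moved with the mitotic kinesins, at a summed level of 605 CPM in HD, against 1814 CPM in DMSO, a ratio of 0.334, beside 275 CPM in HD and 980 CPM in DMSO for the mitotic kinesins, a ratio of 0.281. The share of dividing cells was not measured, and its part in these ratios was not tested.

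Promoter sequence was compared because the mitotic members moved together. RefSeq promoters on GRCh38.p14, from 250 bases before to 50 bases after the gene start, were found for 33 of the 39 members, 26 of them measured, with 1 promoter taken per gene. For 24 of the 26 it stands at the outer end of the gene, and for KIF24 and KIF7 at a start inside it. They were searched on both strands for CCAAT (the box bound by NF-Y), for TTTGAA and its variant TTCGAA (cores of the cell cycle genes homology region, CHR) and for GCGGGAA and TTTGGCG (parts of E2F-type sites). No matches of different motifs overlapped in the members. Positions are counted from the gene start at 0, with negative numbers before it.

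A CHR core of either form was present in 9 of 11 measured mitotic kinesins and in 1 of 9 measured transport kinesins with a promoter in the table. It was present in 11.5% of the promoters of 10134 measured genes, in 28.4% of those of 507 lower genes and in 16.7% of all 27305 promoters. CCAAT was present in 9 of 11 mitotic kinesins and 4 of 9 transport kinesins, against 36.7% of measured genes, 50.3% of lower genes and 35.7% of all promoters. Both together stood in 8 of 11 mitotic kinesins, 1 of 9 transport kinesins, 4.92% of measured genes, 17.8% of lower genes and 6.64% of all promoters. TTTGGCG was found in 2 mitotic kinesins and 1 transport kinesin, against 3.07% of measured genes, 7.50% of lower genes and 1.92% of all promoters. GCGGGAA was found in no mitotic kinesin and 1 transport kinesin, against 10.4% of measured genes, 16.8% of lower genes and 6.57% of all promoters. The median GC content was 62.0% in the mitotic, 69.7% in the transport and 65.0% in all measured promoters, which bears on how often such letters occur. A match is a run of letters and not a shown binding site.

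The promoters of the 3 mitotic kinesins with the lowest ratios, KIF14 at chr1:200620742-200620911 (minus strand), KIF20A at chr5:138178952-138179121 (plus strand) and KIF18B at chr17:44947764-44947933 (minus strand), are given from 160 bases before the start to the 10 bases that begin the gene, with motif matches in capitals. A match on the other strand reads ATTGG for CCAAT and TTCAAA for TTTGAA.
KIF14: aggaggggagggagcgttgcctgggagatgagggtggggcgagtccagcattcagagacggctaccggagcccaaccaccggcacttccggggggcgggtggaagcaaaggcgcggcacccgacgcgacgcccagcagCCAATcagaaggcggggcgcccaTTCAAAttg
KIF20A: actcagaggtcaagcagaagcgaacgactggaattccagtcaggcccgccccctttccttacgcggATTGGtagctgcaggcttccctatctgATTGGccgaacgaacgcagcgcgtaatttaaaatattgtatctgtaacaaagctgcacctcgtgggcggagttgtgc
KIF18B: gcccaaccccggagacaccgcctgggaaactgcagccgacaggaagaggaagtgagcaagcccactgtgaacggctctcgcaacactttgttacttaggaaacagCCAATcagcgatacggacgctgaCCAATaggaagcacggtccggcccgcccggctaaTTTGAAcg
KIF14 and KIF18B hold a CCAAT and, a short distance on, a TTTGAA core that begins at position 1 and 2 from the start. KIF20A holds 2 CCAAT boxes, at -94 and -67, and no CHR core in the window searched.

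KIF4A at chrX:70289944-70290113 (plus strand), KIF11 at chr10:92592970-92593139 (plus strand) and KIF18A at chr11:28108147-28108316 (minus strand) are shown for the spacing of the same pair of motifs, and were chosen after their motif positions were seen.
KIF4A: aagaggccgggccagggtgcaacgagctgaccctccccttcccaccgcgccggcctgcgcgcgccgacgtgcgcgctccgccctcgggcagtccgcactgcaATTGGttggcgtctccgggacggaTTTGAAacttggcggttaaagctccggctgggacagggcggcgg
KIF11: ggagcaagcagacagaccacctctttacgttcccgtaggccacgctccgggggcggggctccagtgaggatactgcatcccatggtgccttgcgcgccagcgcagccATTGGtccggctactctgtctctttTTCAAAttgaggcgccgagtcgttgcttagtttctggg
KIF18A: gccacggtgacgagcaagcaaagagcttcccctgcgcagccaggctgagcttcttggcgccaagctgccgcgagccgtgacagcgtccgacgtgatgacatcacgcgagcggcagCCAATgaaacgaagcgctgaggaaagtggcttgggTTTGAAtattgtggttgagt
The CCAAT and the CHR core begin at -58 and -34 in KIF4A, at -53 and -28 in KIF11 and at -45 and -10 in KIF18A, with the CCAAT farther from the start in each. KIF22 holds a CCAAT at -66 and the TTCGAA variant at -27. KIF15 holds TTTGAA at -35 but no CCAAT, and KIF2C, with a ratio of 0.279, holds none of the motifs searched.

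The 2 transport kinesins with the highest ratios, KIF3C at chr2:25982488-25982657 (minus strand) and KIF5C at chr2:148875067-148875236 (plus strand), are given over the same window.
KIF3C: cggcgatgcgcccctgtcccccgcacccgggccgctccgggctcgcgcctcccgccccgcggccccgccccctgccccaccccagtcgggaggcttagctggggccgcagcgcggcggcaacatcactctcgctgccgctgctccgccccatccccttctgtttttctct
KIF5C: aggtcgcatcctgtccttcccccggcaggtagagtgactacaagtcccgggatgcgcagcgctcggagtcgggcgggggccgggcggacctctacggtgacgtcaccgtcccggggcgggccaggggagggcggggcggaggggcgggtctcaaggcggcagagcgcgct
Neither holds a match here, and KIF5C has 1 CCAAT farther out, at -222. Other transport kinesins do hold matches in this window. CCAAT begins at -78 in KIF3B and at -157 and -126 in KIF1B, GCGGGAA at -142 in KIF1C and TTTGGCG at -47 in KIF16B. The transport kinesin with a CHR core is KIF5B, where TTTGAA begins at -140 and the CCAAT at -59, so the order of the pair is the reverse of that in the mitotic promoters printed above that hold both.

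**Figure D3:**
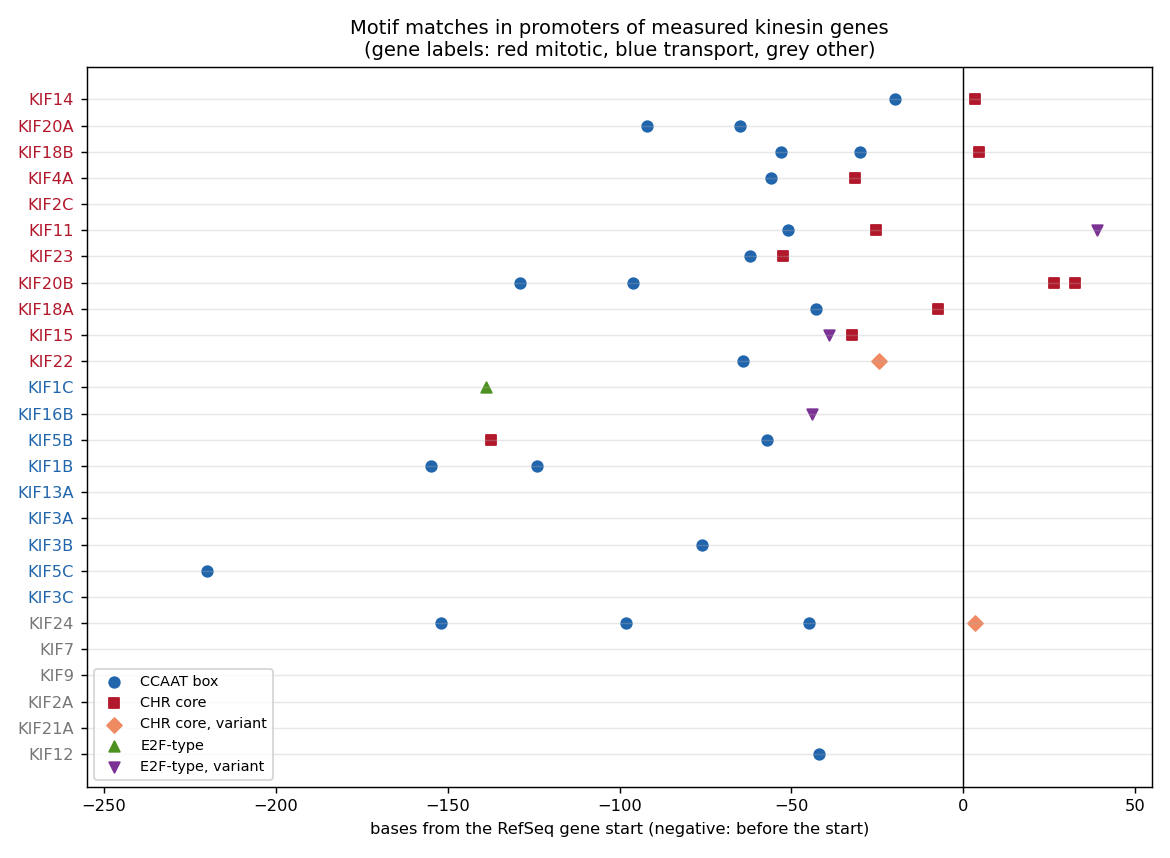
Motif matches on either strand in the promoters of the 26 measured kinesin genes that have one in the RefSeq table, by distance in bases from the gene start. CHR cores (squares, diamonds) lie within 60 bases of the start in 9 mitotic kinesins and in KIF24, and in KIF5B at -140.

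Transport kinesins ranged from slightly below to well above their DMSO level, with KIF3C farthest above it. KIF5B (chromosome 10, 32009015 to 32056425), the ubiquitous heavy chain of conventional kinesin, had 36099 counts (887 CPM) in the HD library, against 34840 (912 CPM) in the DMSO library, a ratio of 0.973 (0.958 to 0.987). KIF5C, a heavy chain best known from neurons (chromosome 2, 148875227 to 149026759), had 4039 counts (99.2 CPM) in HD, against 2220 (58.1 CPM) in DMSO, a ratio of 1.71 (1.62 to 1.80), short of 2-fold. KIF5A, the third heavy chain, was near the filter with 73 counts in HD and 59 in DMSO, and its interval of 0.813 to 1.67 includes 1.

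The KIF3 motors pair as KIF3A with KIF3B or KIF3C and carry cargo in cilia and in the cytoplasm. KIF3C (chromosome 2, 25926598 to 25982497) had 1143 counts (28.1 CPM) in HD, against 301 (7.88 CPM) in DMSO, a ratio of 3.56 (3.14 to 4.06), and was the 1 transport kinesin counted as higher. KIF3A had 982 counts in HD, against 755 in DMSO (ratio 1.22, 1.11 to 1.34), and KIF3B 9765 in HD, against 7416 in DMSO (ratio 1.24, 1.20 to 1.27). KIFAP3, the adaptor that joins these motors to cargo, was at 18.1 CPM in HD, against 22.5 CPM in DMSO, a ratio of 0.805. Ratios within the KIF3 set thus ran from below 1 for the adaptor to above 3 for KIF3C.

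None of the cargo carriers related to KIF1 passed the 2-fold rule. KIF1B (chromosome 1, 10210570 to 10381603), which carries mitochondria and vesicle precursors, had 4220 counts in HD, against 3878 in DMSO, a ratio of 1.02 (0.978 to 1.07). KIF1C, a fast vesicle carrier, had 8228 counts in HD, against 8884 in DMSO, a ratio of 0.869 (0.844 to 0.896). KIF13B, which binds the polarity scaffold DLG1, had 6568 counts (161 CPM) in HD, against 4056 (106 CPM) in DMSO, a ratio of 1.52 (1.46 to 1.58).

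KIF13A, a carrier of recycling endosomes, had 1169 counts in HD, against 925 in DMSO (ratio 1.19, 1.09 to 1.29). KIF16B, which binds early endosomes through a lipid-binding domain, had 1019 counts in HD, against 1094 in DMSO (ratio 0.874, 0.802 to 0.953). The endosomal carriers therefore lay on opposite sides of 1, both under 1.3-fold from it. The neuronal KIF1A had 0 counts in both libraries. KIF17, a KIF3-related motor of dendrites and cilia, had 11 counts in HD and 0 in DMSO, a level below the filter.

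Partners of transport kinesins were listed in the same way. Of 20 measured partners 3 were higher, against 5.81% of all measured genes, and none was lower, against 5.10%. Their median log2 ratio was 0.17. The light chain KLC3 had few counts, 135 (3.32 CPM) in HD, against 39 (1.02 CPM) in DMSO, a ratio of 3.19 (2.26 to 4.77). The light chains KLC1, KLC2 and KLC4 had ratios of 0.962, 0.962 and 1.07. MAPK8IP1, the scaffold JIP1 that binds kinesin light chains, was at 15.3 CPM in HD, against 5.00 CPM in DMSO, a ratio of 3.04. MAPK8IP2, a related scaffold, had a ratio of 1.67 and was not called.

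Cytoplasmic dynein, the motor that runs toward microtubule minus ends, served as a second comparison. None of 26 measured dynein, dynactin and dynein regulator genes was higher, against 5.81% of all measured genes, and none was lower, against 5.10%. Their median log2 ratio was -0.12. The members farthest from 1 were the dynactin subunit DCTN3 (ratio 0.593), the regulator NDE1 (0.701), the heavy chain DYNC1H1 (1.40) and the light chain DYNLL1 (0.727).

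Among the other kinesins the centriolar motor KIF24 was lower and KIF21B was higher. KIF24 (chromosome 9, 34252380 to 34333671), which holds back cilium formation at the mother centriole, had 163 counts in HD, against 381 in DMSO, a ratio of 0.403 (0.332 to 0.484). Its promoter at chr9:34329259-34329428 (minus strand) is shown because it holds 3 CCAAT boxes and a TTCGAA core that begins at position 1, and was chosen after that was seen. The start listed for KIF24 lies 4403 bases inside the RefSeq gene.
KIF24: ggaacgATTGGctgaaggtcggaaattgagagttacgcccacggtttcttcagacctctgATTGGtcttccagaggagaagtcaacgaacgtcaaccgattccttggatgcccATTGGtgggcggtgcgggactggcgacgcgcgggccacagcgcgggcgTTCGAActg
KIF21B (chromosome 1, 200969390 to 201023714), a regulator of microtubule growth known from neurons and T cells, had 1579 counts (38.8 CPM) in HD, against 728 (19.1 CPM) in DMSO. Its ratio of 2.03 is close to the 2-fold rule, and the interval of 1.86 to 2.23 reaches below it. Its relative KIF21A had 4886 counts (120 CPM) in HD, against 4586 (120 CPM) in DMSO, a ratio of 1.00 (0.960 to 1.04).

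KIF2A, a depolymerase of spindle poles that also acts in interphase and in neurons, did not go with KIF2C. It had 4438 counts (109 CPM) in HD, against 4170 (109 CPM) in DMSO, a ratio of 0.999 (0.957 to 1.04). KIF12, a kinesin whose loss causes cholestasis in children, had 1856 counts (45.6 CPM) in HD, against 1512 (39.6 CPM) in DMSO, a ratio of 1.15. Both therefore lay within 1.3-fold of their DMSO level.

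The ciliary motor KIF7, which acts in Hedgehog signalling, had 310 counts in HD, against 424 in DMSO, a ratio of 0.687 (0.591 to 0.796). KIF26B, whose motor domain is thought not to hydrolyse ATP, had 192 counts in HD, against 235 in DMSO, a ratio of 0.768 (0.630 to 0.932). KIF27, a relative of KIF7, had 178 counts in HD, against 203 in DMSO, and KIF9 of motile cilia had 156 in HD, against 154 in DMSO, with intervals that include 1. Of the rest, KIF6 had 8 counts in HD and 2 in DMSO, KIF25 had 1 in HD and 0 in DMSO, and KIF19 and KIF26A had 0 in both.

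Levels of different genes were compared on the deposited FPKM scale, which corrects for gene length. KIF5B was the most abundant kinesin in both libraries, at 173 FPKM in HD and 179 FPKM in DMSO. In the HD library KIF3B (32.6 FPKM), KIF22 (26.8 FPKM) and KIF1C (25.4 FPKM) followed, whereas in the DMSO library 4 mitotic kinesins followed, KIF22 (84.0 FPKM), KIF23 (42.4 FPKM), KIF2C (36.1 FPKM) and KIF4A (31.8 FPKM). The mitotic kinesins made up 18.6% of the summed FPKM of the 39 members in HD, against 45.8% in DMSO. The transport kinesins made up 67.1% in HD, against 44.7% in DMSO, while their summed level was 301 FPKM in HD and 285 FPKM in DMSO. The mitotic sum was 83.4 FPKM in HD, against 292 FPKM in DMSO.

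Among the measured mitotic kinesins the order of levels was nearly the same in both libraries. KIF22 was highest and KIF14 lowest, at 1.21 FPKM in HD and 5.79 FPKM in DMSO. KIF11 stood above KIF20A and KIF18A above KIF18B in HD, and both pairs stood the other way round in DMSO. The pairs were close in level, at 5.91 and 5.09 FPKM for KIF11 and KIF20A in HD and 21.1 and 23.2 FPKM in DMSO.

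**Figure D4:**
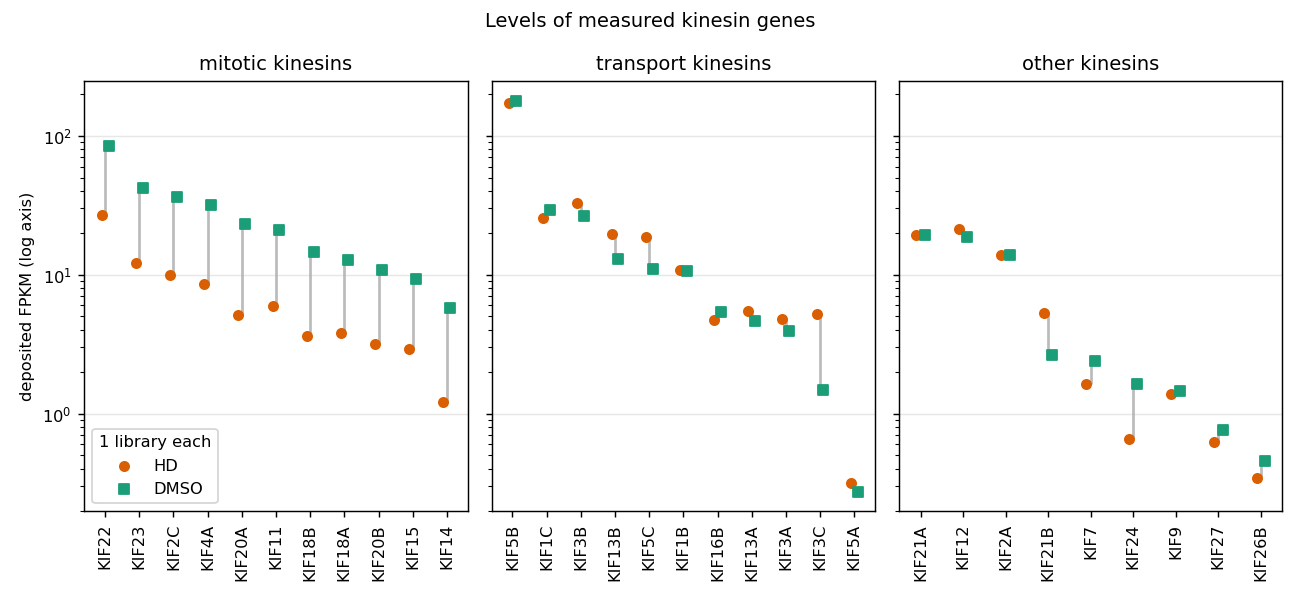
Deposited FPKM (log axis) of each measured kinesin in the HD library (circles) and the DMSO library (squares), 1 library each, by role and ordered by the DMSO level. Every mitotic kinesin lies lower in HD than in DMSO, while KIF5B is the highest in both at 173 FPKM in HD and 179 FPKM in DMSO.

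Relatives in the KIF3, KIF5, KIF21 and KIF2 subfamilies took different shares in the libraries. In other subfamilies the shares were closer, as for KIF1B with 29.9% of the KIF1 sum in HD and 26.7% in DMSO. KIF3C made up 12.3% of the summed FPKM of KIF3A, KIF3B and KIF3C in HD, against 4.64% in DMSO. KIF5C made up 9.77% of the KIF5 sum in HD, against 5.81% in DMSO, with a sum of 193 FPKM in HD and 190 FPKM in DMSO. KIF21B was at 5.32 FPKM in HD, against 2.62 FPKM in DMSO, beside KIF21A at 19.2 FPKM in each. KIF2C made up 42.2% of the KIF2 sum in HD, against 72.3% in DMSO, where KIF2A was at 13.8 FPKM in both. In the transcripts of the KIF3, KIF5, KIF21 and KIF2 subfamilies no word of 50 bases was shared between members.

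**Figure D5:**
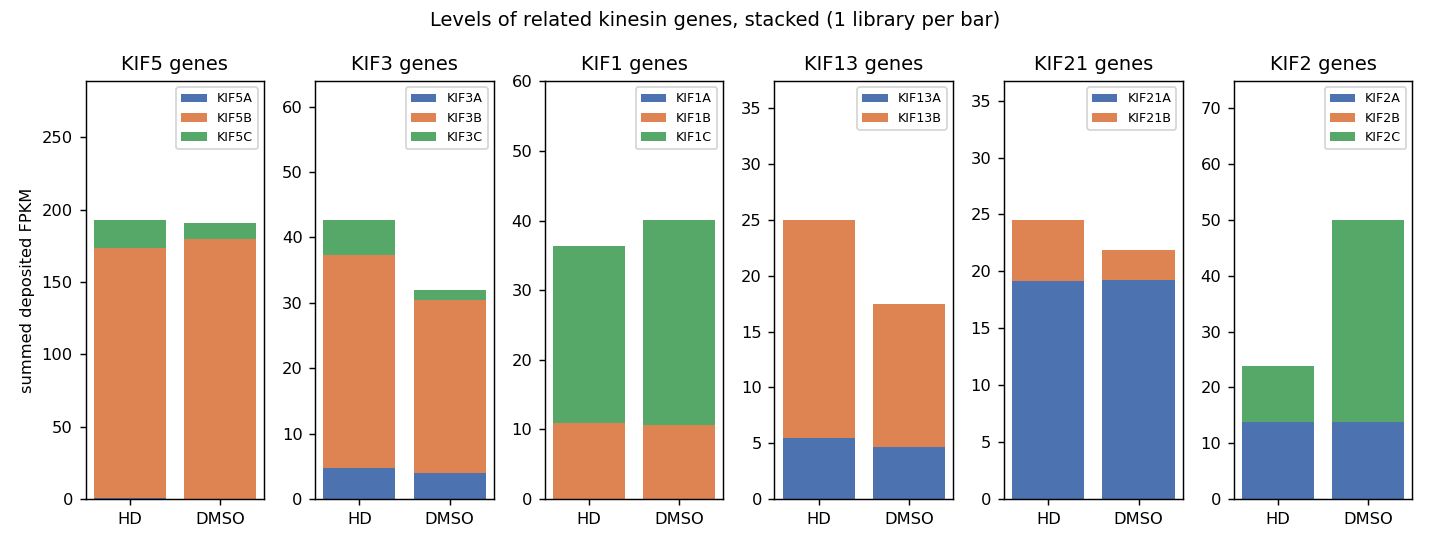
Deposited FPKM of related kinesin genes, stacked per library, for the KIF5, KIF3, KIF1, KIF13, KIF21 and KIF2 genes (1 library per bar, each panel with its own axis from 0). The KIF3C and KIF21B segments are larger in HD, and the KIF2C segment is smaller in HD at 10.0 FPKM, against 36.1 FPKM in DMSO.

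Some members share sequence with other genes, and reads from such stretches cannot be told apart. For genes on the opposite strand this holds because the strand setting of the counting is not given. Of the words of 50 bases in its GENCODE transcripts, KIF22 shares 10.7% with a gene on the opposite strand, KIF9 shares 9.56% with its antisense gene KIF9-AS1 and KIF7 shares 7.28% with TICRR on the opposite strand. KIF13B shares 6.03% with genes on the opposite strand. On the same strand KIF27 shares 26.7% with other genes and KIF2A 7.70% with IPO11, and KIF27 shares a further 9.45% on the opposite strand.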

How the data were processed

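Poly(A)-selected mRNA was sequenced from 1 HD and 1 DMSO library of Huh7 cells. The authors deposited a table of raw counts per gene and, for each library, FPKM values, which the authors scaled to gene length and library total. The build was hg38, per the submitters' processing notes, and the aligner, counter, annotation and strand setting are not stated in the sources used here. In 14778 genes with counts in both libraries, FPKM ratios differed from total-scaled count ratios by at most 3.13e-05%.

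Counts were scaled with TMM factors (edgeR 4.0.16, R 4.3.3) over the whole table. Log2 ratios used a prior count of 1, intervals are exact Clopper-Pearson at 95%, and a count of 0 allows up to 3 counts. PCR copies are not independent molecules, so counting error is all that intervals and floors cover. With 1 library per group no test was possible. The ratio rule was run on simulated counts that held counting error only, which cannot show how it does with spread between cultures. Python 3.11.15, numpy 2.4.6, pandas 2.3.3, scipy 1.17.1 and matplotlib 3.10.9 were used. Transcript words came from GENCODE 29, promoters and coordinates (counted from 1) from RefSeq GRCh38.p14.

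The members, role groups and lists were chosen with earlier results of these data known. Every member is named. Context lists are given as counts with at most the 4 genes farthest from a ratio of 1, of which 1 is not reported here. KIFAP3, KLC1, KLC2 and KLC4 were added after their values were seen. Alternatives covered scaling, prior count, filter, fold rule and FPKM.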

Additional observations from a re-analysis of the deposited data

How the results depend on the processing

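No paired analysis was possible because each group is 1 library and no test was made. All 11 measured mitotic kinesins were lower under 9 of 10 alternative settings, and 11 of 12 with no filter beyond 1 count, where KIF4B enters and was not called. No transport kinesin was lower under any of the 10. Of alternatives chosen after seeing the data, summing KIF4A and KIF4B left 11 of 11 lower, and counting KIF2A as mitotic left 11 of 12, without KIF2A. The mitotic median log2 ratio stayed between -1.84 and -1.80, the transport median between 0.24 and 0.28, and their difference between -2.10 and -2.07. Counts moved with the rules that set them. With a fold rule of 1.5, 4 members were higher, 3 of them transport kinesins, and 1736 genes of the whole table were lower and 1736 higher. With a fold rule of 3, 1 member was higher, 0 other kinesins were lower and 0 higher, and 201 genes were lower and 192 higher. With no filter beyond 1 count, 2 transport kinesins were higher, the added one being KIF17 with 11 counts in HD and 0 in DMSO. Of the 15977 genes then included, 946 were lower and 1197 higher. The other scalings put the median of all measured genes between -0.02 and 0.02, beside -0.01. Spread between cultures was not measured, and depth limits the members with few counts, such as KIF5A and KIF17.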
